A study of Mus musculus with 6 samples.

Results

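The Irf1 locus was described as a stretch of 70 kb on mouse chromosome 11 (mm9, chr11:53550000-53620000) that holds the Irf1 gene, placed near chr11:53583500-53592000. Its members were all deposited peaks of p300, PU.1 and mono-methylated histone H3 lysine 4 (H3K4me1) with any base in that stretch, together with the reads in them. There were 38 such peaks among 257266 in the series. The p300 lists held 6 of 12237 peaks after lipopolysaccharide (LPS) and 1 of 12421 in untreated cells. The PU.1 lists held 9 of 74365 peaks after LPS and 9 of 73500 in untreated cells, and the H3K4me1 list of untreated cells held 13 of 84743. Peaks of the same protein that overlapped in both conditions were merged into sites, which gave 6 of 19879 p300 sites and 11 of 87955 PU.1 sites.

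The cells were primary macrophages grown from the bone marrow of female Fvb mice and used on day 7 of differentiation. One set was stimulated for 2 h with LPS at 10 ng/ml, a cell-wall component of Gram-negative bacteria, and the other was left untreated. Chromatin fixed with 1% formaldehyde for 10 min was precipitated with an antibody to p300 (LPS, 2 libraries; untreated, 2 libraries), PU.1 (LPS, 1 library; untreated, 1 library) or H3K4me1 (untreated, 1 library), and input DNA of untreated cells gave 1 library. All groups shared the strain and the culture, and the labels name no altered gene.

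Irf1 encodes interferon regulatory factor 1, a transcription factor that macrophages switch on quickly during inflammation and in response to interferon. Its promoter is a known target of NF-kappaB. The acetyltransferase p300 is recruited by transcription factors to active enhancers and promoters, PU.1 is the lineage factor that macrophages keep bound at many of their enhancers, and H3K4me1 is a histone mark typical of enhancer regions.

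The Irf1 promoter is shown because a p300 site lay over the start of the gene. It runs from 250 bases before to 50 bases after the annotated start (RefSeq, build GRCm38.p6, chr11:53769764-53770063, plus strand), a newer build than that of the peaks. Capitals mark every match to the letters searched on both strands.
Irf1 promoter 1: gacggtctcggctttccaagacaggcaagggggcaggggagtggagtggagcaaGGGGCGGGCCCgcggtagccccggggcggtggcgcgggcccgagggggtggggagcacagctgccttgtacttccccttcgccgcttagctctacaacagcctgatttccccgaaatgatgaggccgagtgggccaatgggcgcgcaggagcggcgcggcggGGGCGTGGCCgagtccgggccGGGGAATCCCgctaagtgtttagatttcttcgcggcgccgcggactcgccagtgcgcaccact
The NF-kappaB pattern, GGG and CC with any 5 bases between, matched 6 times when overlapping matches and both strands were counted, among them GGGGAATCCC at positions 238 to 247 counted from the first base shown. Such a match was common, since 51% of 32534 distinct promoters of this length held one. No match was found to GAGGAAG (PU.1), held by 13.4% of the promoters, to TGANTCA (AP-1), held by 7.79%, or to the IRF element (ISRE, a pair of GAAA with any 2 bases between), held by 3.45%. GC content was 69.3%, against a median of 53% over all promoters. A second Irf1 promoter in the same table held none of these 4 letter patterns.

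The 8 libraries had 5744811 to 7828655 aligned reads, of which 5503587 to 6428281 were distinct in position and strand. The p300 libraries of one condition differed in enrichment. Replicates 1 and 2 had 2.31% and 5.49% of their distinct reads in the LPS p300 peaks after LPS, and 1.44% and 6.20% in the untreated p300 peaks without treatment. Input had 0.875% of its reads in the LPS p300 peaks. PU.1 and H3K4me1 were far more concentrated, with 49.2% to 55.2% of the reads of each library in its own peaks. Those lists are longer, and input had 3.85% to 7.90% of its reads in them. All reads below are distinct reads.

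Within the 70 kb, p300 lay around Irf1 on both sides of the gene. One site lay upstream of the gene, one over its start, one within it and 3 downstream of it. The upstream site alone had a p300 peak in untreated cells, and the other 5 sites came from the LPS list alone. So many LPS p300 peaks were rare in a stretch of this length: 85 of 37709 adjoining tiles of 70 kb, or 0.225%, held at least 6. Most tiles, 78.7%, held no LPS p300 peak. At least 1 untreated p300 peak, the number found here, was held by 21.5% of the tiles. At least 9 LPS PU.1 peaks were found in 3.07% of the tiles and at least 13 H3K4me1 peaks in 4.58%. These are descriptions of a locus chosen with earlier results known. In the RefSeq gene order, Irf1 has Il5, the interleukin 5 gene, on one side and Slc22a5, a carnitine transporter gene, on the other.

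**Figure D1:**
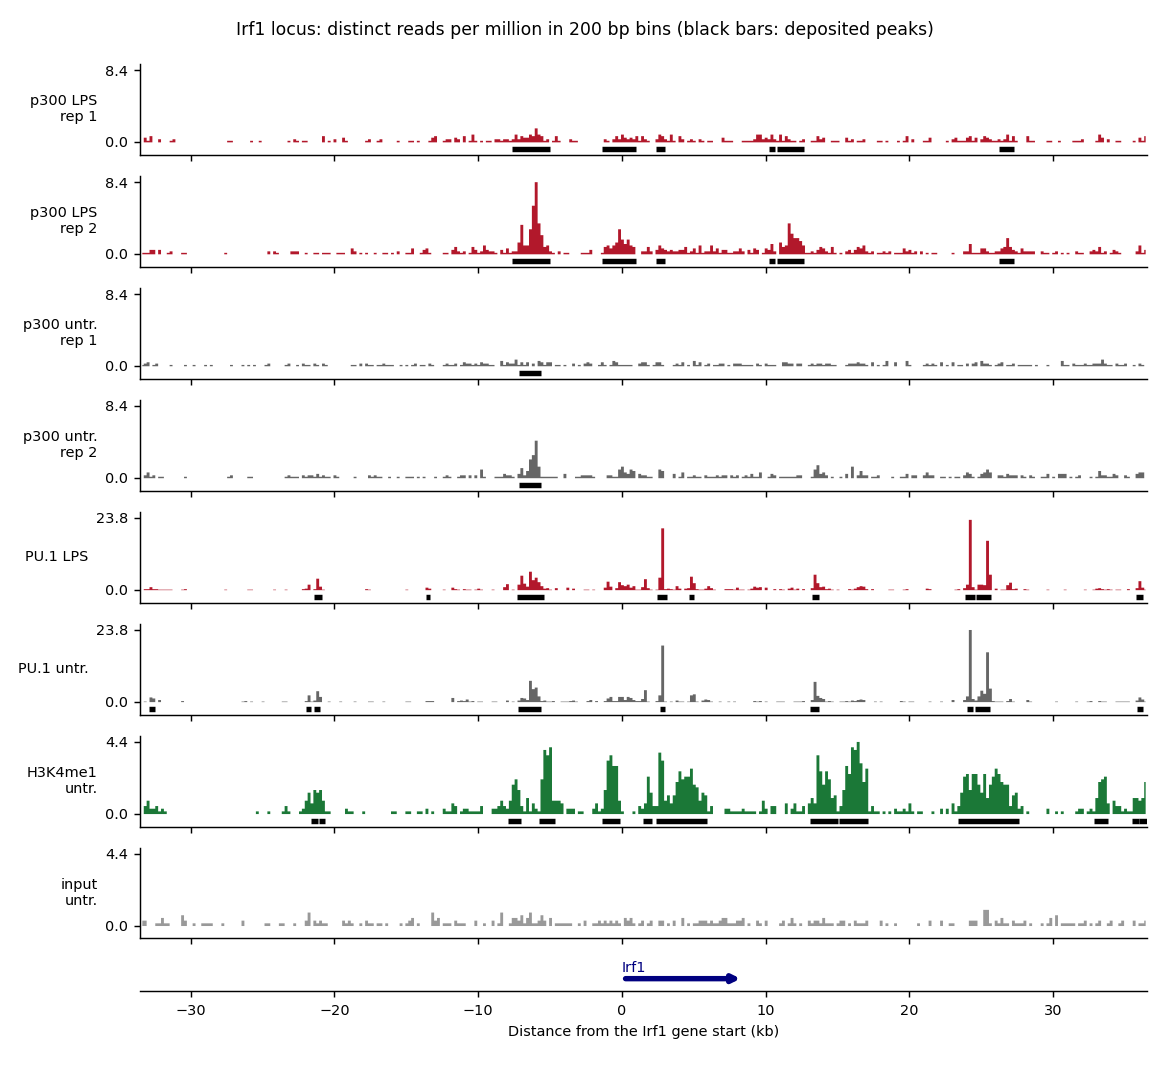
Distinct reads (RPM, scaled to the total of each library) in bins of 200 bp along the Irf1 locus, one track per library, against the distance from the start of the gene in kb. Black bars are deposited peaks, pooled over both replicates for p300. The p300 signal of LPS replicate 2 stands over the upstream site and the second downstream site, and the untreated p300 list has a single peak, at the upstream site.

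At 1 of the 6 p300 sites, the second one downstream of the gene, p300 was called higher after LPS in the fit reported. Over all 19727 sites tested, 388 or 1.97% were called higher and 0.213% lower by limma voom at a Benjamini-Hochberg adjusted p of 0.05. No member was called lower, and the other 5 did not pass. Without LPS replicate 1, LPS replicate 2 or untreated replicate 2, no site of the genome was called in either direction (smallest limma adjusted p 0.0859, 0.641 and 0.0950), with 1772, 781 and 3921 sites at an unadjusted p under 0.05. The estimated log2 fold change was above 0 at all 6, with a median of 1.10, against 0.00 over all tested sites. That direction follows largely from the peak lists: of the 7507 tested sites with a peak in the LPS list alone, 99.1% had a log2 fold change above 0, their median was 1.42 and 4.88% were called higher. In normalised reads, LPS was higher with no overlap of the groups at 5 of the 6 members. The same held at 60.7% of the sites of the LPS list alone and at 26.9% of all sites.

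The upstream site (chr11:53575864-53578506, centre 6.3 kb before the gene start) carried the most p300. Its normalised reads were 71.0 and 123 in LPS replicates 1 and 2, against 55.8 and 48.4 in untreated replicates 1 and 2. On that scale the groups did not overlap. The raw reads were 49 and 189 after LPS, against 30 and 85 in untreated cells, with 31 in input, and there the groups overlapped. The scaling thus raised the counts of both replicate 1 libraries and lowered those of both replicate 2 libraries. The LPS level of the site was above that of 99.6% of tested sites, whose median width was 490 bp. That level was summed over 2643 bp and not scaled by width. Its LPS peak ranked 252 of 12237 by the authors' score. The untreated peak ranked 3344 of 12421. The log2 fold change was 0.77 ± 0.57 (SE), with a limma adjusted p of 0.391, so the difference was not called.

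Over the start of the gene (chr11:53582118-53584497), the site had 40.6 and 54.8 normalised reads after LPS, against 27.9 and 21.6 in untreated cells. On this scale both LPS libraries were higher than both untreated ones. The raw reads were 28 and 84 after LPS, against 15 and 38 in untreated cells. The log2 fold change was 0.90 ± 0.53 (SE), with a limma adjusted p of 0.318. Neither PU.1 list had a peak there, although 91 PU.1 reads were counted after LPS and 70 in untreated cells.

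Inside the gene, 2.7 kb after its start, the site at chr11:53585859-53586481 had 15.9 and 8.48 normalised p300 reads after LPS, against 13.0 and 6.26 in untreated cells. Here the groups overlapped, and on this scale replicate 1 was the higher in both conditions. In raw reads replicate 2 was the higher, with 11 and 13 in LPS replicates 1 and 2 and 7 and 11 in the untreated ones. The log2 fold change was 0.52 ± 0.59 (SE), with a limma adjusted p of 0.542, and it ran from -0.34 without untreated replicate 2 to 1.05 without LPS replicate 2. This site had the strongest PU.1 signal per length of the 6 p300 sites, with 150 reads after LPS and 123 in untreated cells over 623 bp.

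A pair of p300 sites lay close together past the end of the gene. The first (chr11:53593733-53594164, centre 10.4 kb after the gene start) had 10.1 and 7.17 normalised reads after LPS, against 3.72 and 2.85 in untreated cells. The groups did not overlap, at 2 to 11 raw reads a library. Its log2 fold change was 1.31 ± 0.79 (SE), with a limma adjusted p of 0.322. Input had 0 reads there, where a count of 0 allows up to 3.

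The second downstream site (chr11:53594275-53596187, centre 11.7 kb after the gene start) was the one called. Its raw p300 reads were 18 and 91 after LPS, against 14 and 10 in untreated cells, or 26.08 and 59.3 against 26.03 and 5.69 when normalised. The replicates did not show the same difference. In normalised reads, LPS replicate 1 and untreated replicate 1 were nearly equal, and LPS replicate 2 was far above untreated replicate 2. Scaled to total distinct reads, LPS replicate 1 had 3.27 RPM and untreated replicate 1 had 2.18 RPM. The log2 fold change was 2.00 ± 0.55 (SE), a fold of 4.00, with a limma adjusted p of 0.0221. As at every member, this SE and this p rest on a residual variance common to all sites. They do not measure the spread between the replicates of the site itself. In limma fits without 1 library, the log2 fold change was 2.69 without LPS replicate 1 (adjusted p 0.254), 1.27 without LPS replicate 2 (adjusted p 0.733), 2.69 without untreated replicate 1 (adjusted p 0.00233) and 0.44 without untreated replicate 2 (adjusted p 0.763). The call was kept in the third of these alone; each such fit leaves 1 library in a group, which is assumed to vary like the other group. With total reads or reads in peak-free bins as library size, the log2 fold change was 1.86 ± 1.47 (SE, adjusted p 0.644) or 1.87 ± 1.62 (SE, adjusted p 0.727), so the fold was close to that reported and its error larger. By limma-trend it was 1.52 ± 0.49 (SE, adjusted p 0.0790). With 2 libraries against 2, an exact two-sided permutation test of a single site cannot go below 0.333.

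The distal site (chr11:53609697-53610807, centre 26.8 kb after the gene start) had 20.3 and 19.6 normalised p300 reads after LPS, against 13.0 and 5.69 in untreated cells. Both LPS libraries were above both untreated ones, and the LPS replicates lay close together. The estimated fold was 2.83 (SE 0.57 on the log2 scale), with a limma adjusted p of 0.150. Leaving out untreated replicate 2 gave a log2 fold change of 0.49 ± 0.63 (SE). At an unadjusted limma p of 0.05, this site and the second downstream one passed, 2 of 6, against 11.5% of all tested sites higher after LPS. Both have a peak in the LPS list alone, which favours higher LPS reads. The share among the sites of that list at this threshold is not given here. Without untreated replicate 2 the log2 fold change of the second downstream site was 0.44.

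**Figure D2:**
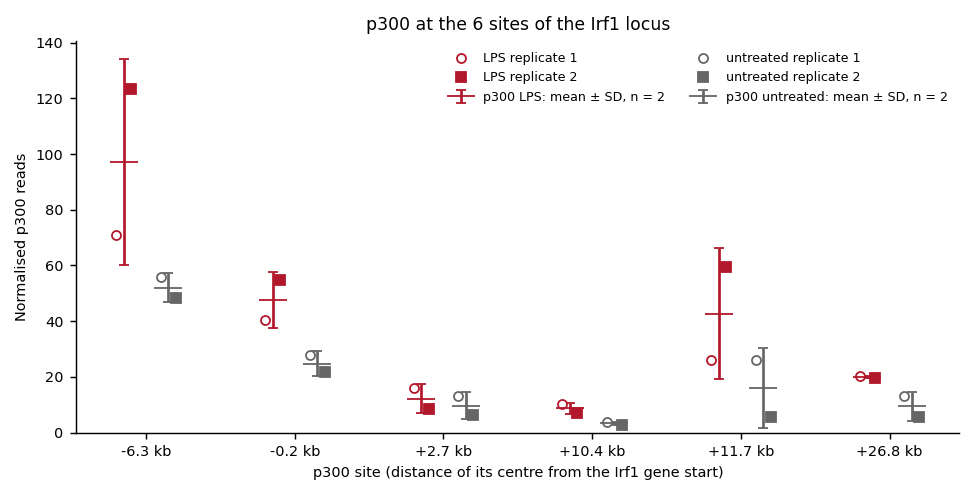
Normalised p300 reads at the 6 sites of the locus, LPS left of untreated, with single libraries as points and the mean ± SD of 2 libraries. The upstream site is the highest, and at the site 11.7 kb after the gene start LPS replicate 2 stands at 59.3 while both replicate 1 libraries lie at 26.

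Set against input, enrichment of p300 depended on the library. The interval of the p300 to input ratio (exact, 95%, counting error only) lay above 1 at all 6 sites in LPS replicate 2 and at 2 sites in LPS replicate 1. It did so at 2 sites in untreated replicate 2 and at 0 sites in untreated replicate 1. All 6 sites have a peak in the LPS list, so reads above input after LPS follow in part from that choice. The same counts over all p300 sites are not given here. At the upstream site the ratios were 1.74 (1.09 to 2.82) and 6.36 (4.34 to 9.63) after LPS, against 0.912 (0.533 to 1.56) and 2.81 (1.84 to 4.38) in untreated cells. Replicate 2 was the higher in both conditions. At the second downstream site they were 2.20 (0.939 to 5.56) and 10.6 (5.32 to 23.8) after LPS, against 1.47 (0.591 to 3.84) and 1.14 (0.415 to 3.16) in untreated cells. There, LPS replicate 2 alone was clear of input.

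Outside all peaks, the locus held p300 reads at about the level of input in most libraries. Reads outside every peak, in RPM, were 29.1 and 40.9 after LPS, against 30.3 and 31.8 in untreated cells, and input had 28.1. LPS replicate 2 was the highest of these. The 6 sites covered 13.0% of the locus and held 32.0% and 50.8% of its p300 reads after LPS, against 20.2% and 32.9% in untreated cells. Input had 21.1% of its reads in them, about the share of untreated replicate 1. Since 5 of the 6 sites came from the LPS list alone, a larger share after LPS follows in part from that choice.

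PU.1 was bound at sites on both sides of Irf1 and within it, before and after LPS. Of the 11 PU.1 sites, 7 had a peak in both lists, 2 in the LPS list alone and 2 in the untreated list alone. Both PU.1 lists carry LPS in their header line, and each was used under the label of its sample after a comparison with the reads. Over the genome, the 15145 sites of the LPS list alone held 209123 reads of the LPS library and 99952 of the untreated one, and the 14146 sites of the untreated list alone held 112968 of the LPS library and 205549 of the untreated one. Of the 11 sites, 8 had at least 40 reads over both libraries, and at 0 of these 8 did the 95% interval of the LPS to untreated ratio lie beyond 2-fold. Over all 42940 PU.1 sites with that many reads, 0.564% lay beyond 2-fold higher and 0.0536% beyond 2-fold lower. The median ratio was 1.12 at the 8 sites, against 0.972 over all. With 1 library per condition there was no test, and the intervals cover counting error only.

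The PU.1 site inside the upstream p300 site (chr11:53576187-53578099) had 168 reads after LPS and 129 in untreated cells. Its ratio of 1.30 (1.03 to 1.65) was the one interval of the 8 above 1, as for 7.92% of all such sites, and 0 of the 8 lay below 1, against 8.81%. With total reads as library size its interval was 0.989 to 1.59, and counted 500 bp on each side of the centre in place of the whole site the ratio was 0.925 (0.697 to 1.23). The ratio differed between parts of the site, which were chosen after the values were seen. The 1 kb from chr11:53576000 to 53576999 had 60 PU.1 reads after LPS and 22 in untreated cells (ratio 2.73, 1.65 to 4.67), whereas the next 1 kb had 106 after LPS and 107 in untreated cells.

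Within the gene, the PU.1 site at chr11:53585913-53586626 had 153 reads after LPS and 124 in untreated cells, a ratio of 1.23 (0.967 to 1.58). Its summits in the LPS and untreated libraries were 0 bp apart. Further into the gene, chr11:53588132-53588517 was in the LPS list alone, with 44 reads after LPS and 28 in untreated cells (1.57, 0.957 to 2.62). Both intervals include 1. With all reads kept, that of the first was 1.06 to 1.55, and with 500 bp on each side of the centre that of the second was 1.04 to 2.71.

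Downstream, the largest PU.1 sites showed no difference that counting could resolve. The site at chr11:53607334-53608029 had 159 reads after LPS and 157 in untreated cells (1.01, 0.807 to 1.27), and its neighbour at chr11:53608034-53609208 had 163 after LPS and 174 in untreated cells (0.937, 0.752 to 1.17). Neither had a p300 peak: the first held 8 and 12 p300 reads after LPS, against 4 and 9 in untreated cells, with 5 in input. The PU.1 site inside the upstream p300 site had 40 and 176 p300 reads after LPS, against 18 and 82 in untreated cells. Input had 24 there. That site spans 1913 bp, and the one with 5 input reads spans 696 bp. Strong PU.1 sites of the locus thus differed in raw p300 reads, most of all in replicate 2. Their widths and input reads differed as well.

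The remaining sites followed the same pattern. The site at chr11:53596590-53597225, just past the second downstream p300 site, had 50 PU.1 reads after LPS and 55 in untreated cells (0.909, 0.607 to 1.36). The site at chr11:53562059-53562658 had 33 after LPS and 34 in untreated cells (0.971, 0.583 to 1.62), and that at chr11:53619277-53619737 had 27 after LPS and 17 in untreated cells (1.59, 0.835 to 3.11). All of these intervals include 1. The 3 sites under 40 reads had 7 to 11 reads after LPS and 4 to 16 in untreated cells.

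**Figure D3:**
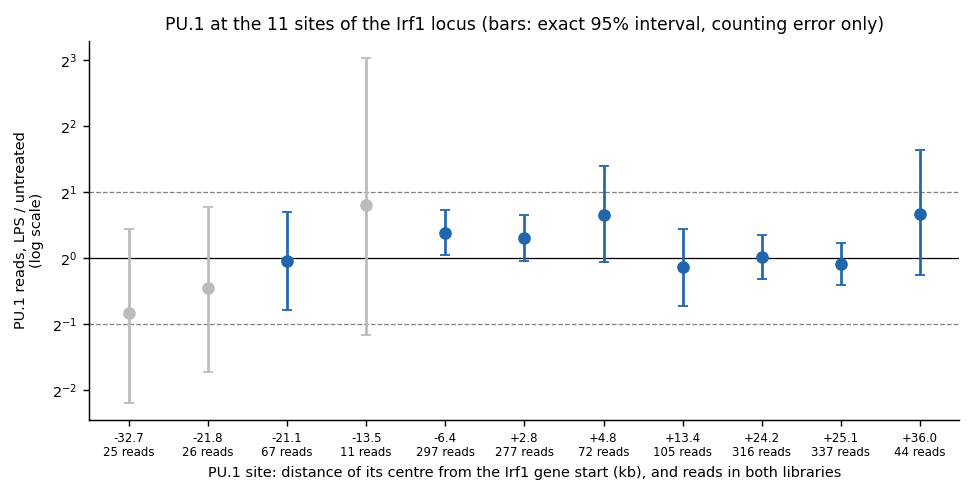
Ratio of PU.1 reads after LPS to untreated at the 11 PU.1 sites, on a log2 axis, with exact 95% intervals for counting error; sites under 40 reads are in pale grey, the solid line marks equal signal and dashed lines mark 2-fold. The site inside the upstream p300 site, at 1.30, is the one of the 8 sites with at least 40 reads whose interval lies above 1.

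Low PU.1 signal differed between the conditions in some of the stretches between PU.1 sites. The stretch between the last PU.1 site of the gene and the next one downstream (chr11:53588518-53596589), which holds the first and second downstream p300 sites, had 80 PU.1 reads after LPS and 31 in untreated cells, a ratio of 2.58 (1.69 to 4.04). Its p300 reads were 59 and 165 after LPS, against 49 and 50 in untreated cells, and input had 47. The stretch from the large downstream pair to the last PU.1 site, which holds the distal p300 site, had 59 PU.1 reads after LPS and 33 in untreated cells (1.79, 1.15 to 2.83). At the distal p300 site itself there were 29 after LPS and 11 in untreated cells (2.64, 1.28 to 5.85). The difference did not follow the p300 sites throughout. Between the PU.1 sites within the gene lay no p300 site, and the counts were 20 after LPS and 7 in untreated cells (2.86, 1.16 to 8.00). The stretch from the upstream PU.1 site to the first one within the gene holds the p300 site over the gene start. Its counts were 147 after LPS and 128 in untreated cells (1.15, 0.900 to 1.47). At the remaining stretches the interval included 1. These stretches were chosen after the values were seen, carry 1 library per condition and were not tested.

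H3K4me1 marked much of the locus in untreated cells, over 13 peaks and 18565 bp. At 10 of the 13 the 95% interval of the ratio to input lay above 2-fold, against 57.4% of all H3K4me1 peaks. That share depends on read number as well as on the ratio, and the members were wider. Their median width was 930 bp, against 647 bp over all peaks. The median ratio was 7.79 at the members and 6.72 over all peaks. With reads in peak-free bins as library size, every such ratio was 4.37 times larger. The mark was not measured after LPS in the libraries used here.

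The broadest H3K4me1 peak in the gene (chr11:53585887-53589426) had 196 reads, against 19 in input, a ratio of 10.2 (6.38 to 17.4). A smaller peak before it (chr11:53584977-53585587) had 26 against 3 in input (8.60, 2.64 to 44.4). The peak ending at the gene start (chr11:53582098-53583367) had 94 against 9 in input (10.4, 5.23 to 23.4). The mark thus flanked the start of the gene on both sides.

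A pair of H3K4me1 peaks stood at the edges of the upstream p300 site. That on its outer side (chr11:53575605-53576447) had 40 reads, against 10 in input (3.97, 1.95 to 8.90), and that on the side of the gene (chr11:53577703-53578826) had 91 against 11 in input (8.21, 4.38 to 17.0). The 500 bp centred on the p300 summit after LPS, mostly between them but ending inside the gene-side peak, had 5 reads and input had 5 (0.993, 0.228 to 4.31). The next 500 bp towards the gene had 50 against 5 in input. At the gene start, the 500 bp at the summit had 7 against 3 in input, the 500 bp before it 48 against 4, and the 500 bp after it 0 against 5. At the other H3K4me1-marked p300 sites the summit itself was marked, with 46 against 4 in input inside the gene and 24 against 2 in input at the distal site, which lies in a peak of 4237 bp (chr11:53606858-53611094; 7.54, 5.14 to 11.4). The summit windows were chosen after the values were seen. The other 7 peaks of the locus had ratios of 4.63 to 14.0.

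**Figure D4:**
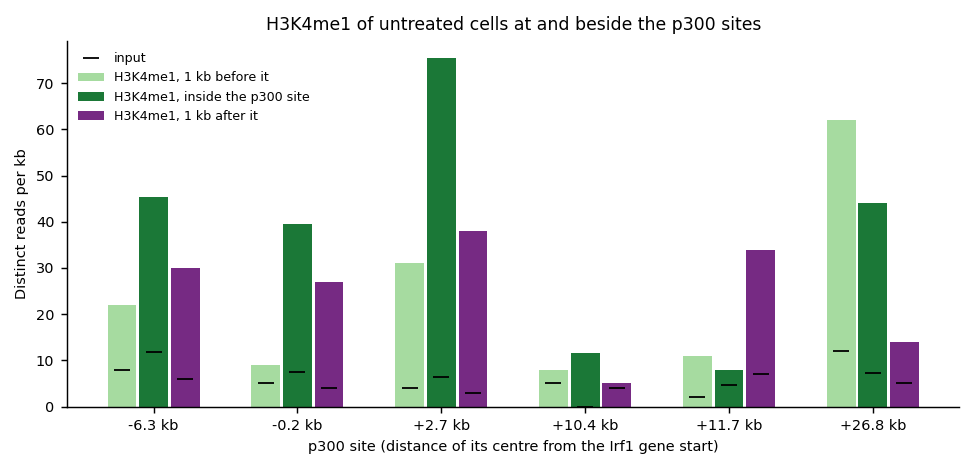
H3K4me1 reads per kb of untreated cells in the 1 kb before, inside and in the 1 kb after each p300 site, with input reads per kb as black dashes. The site within the gene is the most heavily marked, and the sites 10.4 and 11.7 kb after the gene start stay low inside.

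The called downstream site lay outside both PU.1 and H3K4me1 peaks. It held 15 H3K4me1 reads, against 9 in input (1.65, 0.678 to 4.29), and 17 PU.1 reads after LPS, against 8 in untreated cells. The nearest LPS PU.1 peak began 512 bp further downstream and the nearest H3K4me1 peak 407 bp further. The first downstream site had neither peak, too. Of all 19727 tested p300 sites, 38.9% had neither a PU.1 nor an H3K4me1 peak, and 18.6% of the 388 called higher. Of the 6 members, 4 overlapped an H3K4me1 peak (48.4% of all tested), 2 an LPS PU.1 peak (50.5%) and 2 an untreated PU.1 peak (48.9%).

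At the upstream site, the p300 summit after LPS lay 409 bp nearer to the gene than the PU.1 summit, and the p300 summits of the LPS replicates were 8 bp apart. PU.1 was spread widely there, with 46 LPS reads in the 500 bp at the p300 summit and 61 in the 500 bp before. Within the gene the p300 and PU.1 summits were 81 bp apart, less than the 166 bp between the p300 summits of the LPS replicates. The members were also wide, with a median of 1512 bp, against 490 bp over all tested p300 sites.

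**Figure D5:**
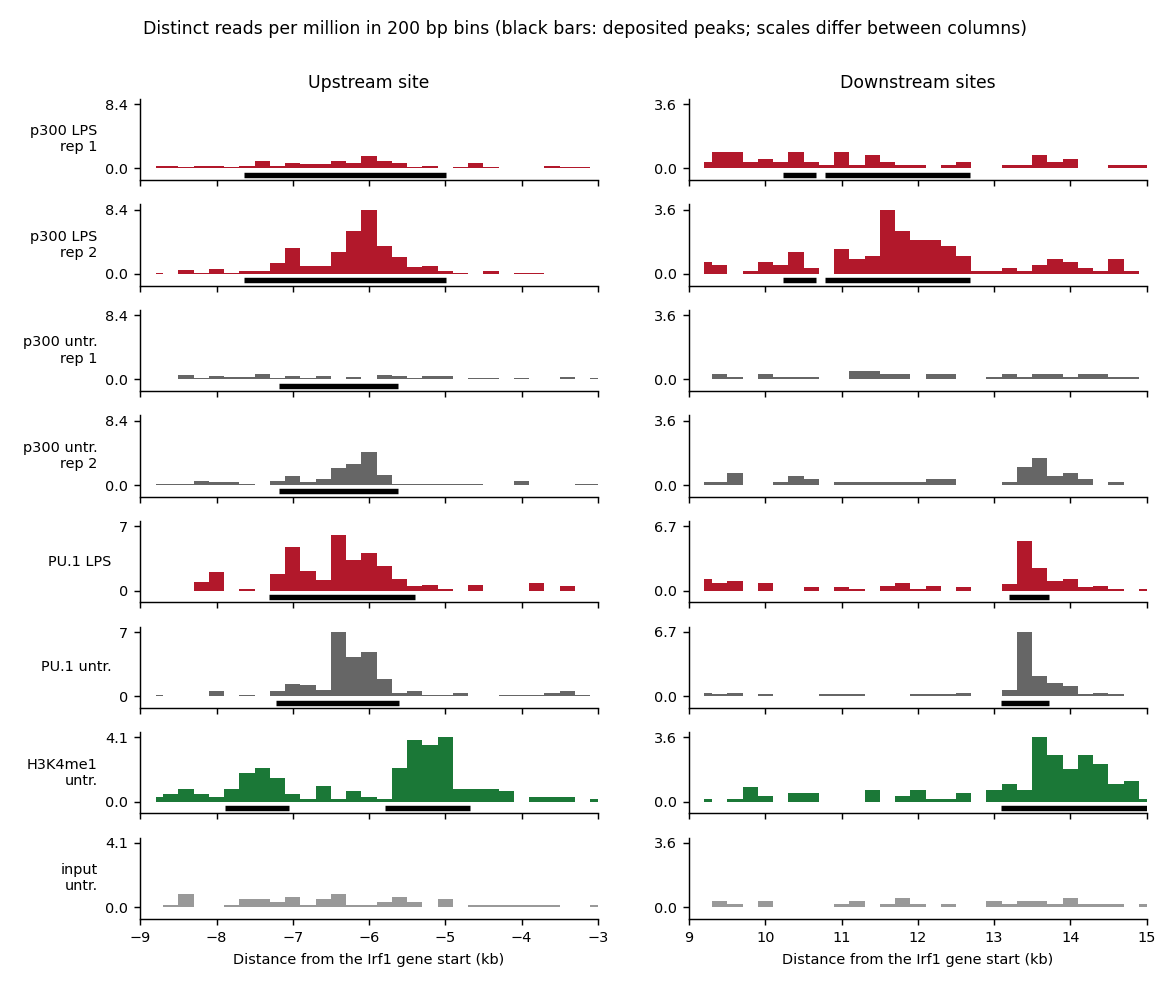
Distinct reads (RPM, scaled to the total of each library) in bins of 200 bp at the upstream p300 site (left) and the downstream pair (right), one row per library, with deposited peaks as black bars and different scales in the 2 columns. At the upstream site p300 lies over PU.1, with its summit between the H3K4me1 peaks. At the second downstream site LPS replicate 2 stands apart from the other p300 libraries.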

How the data were processed

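Aligned reads, 36 bp long, and peak lists on mm9 were deposited by the authors as coordinates. Per the deposited column description, peaks were called with MACS and each has a score that the authors' caller made from its −log10 p-value. The control libraries, per the file headers, were input for H3K4me1, one called random for PU.1 and one called naked for p300. Per the series' design text, reads of 2 biological replicates were merged for p300. The aligner and its settings are not given in the sources used here.

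From the reads, 1 was kept per position and strand on chromosomes 1 to 19 and X, and 5′ ends were moved 100 bp downstream. Overlapping p300 peaks (at least 1 bp) were merged, and so were PU.1 peaks. The p300 sites with at least 10 reads over the 4 libraries were tested with limma 3.58.1 (voom, R 4.3.3, treatment as the single term, Benjamini-Hochberg over 19727 sites), with libraries scaled by the median of ratios, which is also the scale of the normalised reads. The residual variance was estimated as common to all sites. PU.1 ratios were scaled in the same way and input ratios by total distinct reads, with exact intervals from scipy 1.17.1. One planned motif is not reported here. The limma script and the motif search were tested on simulated data.

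All p300 sites are named, PU.1 sites with at least 40 reads, and H3K4me1 peaks at the gene, within 2 kb of its start or at a p300 site. The members and lists were chosen with earlier results of these data known. A genome and annotation of mm9 were not used here, so introns and exons are not given, motifs in the p300 sites were not analysed here, and neither was p300 near other IRF genes. Other scalings, duplicate reads, shifts, filters, regions, weights, a replicate block and leaving out each p300 library were tried.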

Additional observations from a re-analysis of the deposited data

How the results depend on the processing

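The number of p300 sites of the locus called higher after LPS by limma was 1 in the fit reported. It was 0 with total reads, 0 with reads in peak-free bins and 0 with limma-trend, where 0, 0 and 2 sites had an unadjusted p under 0.05. Over all sites, total reads and peak-free bins gave no call in either direction, with the median log2 fold change at 0.20 and 0.16, and 1494 and 1449 sites at an unadjusted p under 0.05. Leaving out 1 library gave 0 to 1 called site of the locus; in the 3 fits with 0, no site of the genome was called either. The log2 fold change of the site within the gene ran over these from -0.34 without untreated replicate 2 to 1.05 without LPS replicate 2. With the replicate block the count stayed at 1, and the second downstream site had a log2 fold change of 2.04 (adjusted p 0.000353). Over all sites the block gave 896 higher and 395 lower, against 388 and 42. Deviations of same-numbered libraries correlated at 0.138 over 8641 sites, and the labels do not tie a number to a shared batch. With peaks scoring at least 100 alone, 1 p300 site overlapped an LPS PU.1 peak and 1 an untreated PU.1 peak, where 4 sites were left. PU.1 had 0 sites beyond 2-fold under each alternative run. The count of H3K4me1 peaks above 2-fold was 10 to 13, and that of p300 libraries and sites above input 10 to 12. Counting limits the smaller sites: the first downstream site rested on 2 to 11 p300 reads a library, and PU.1, H3K4me1 and input had 1 library each. The replicates came as different biological replicates, and whether they shared mice is not given in the sources used here.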
